A study of Mus musculus with 25 samples.

Results

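The NMDA receptor genes of spinal cord cholinergic neurons were examined as a family chosen by name, namely *Grin1*, *Grin2a*, *Grin2b*, *Grin2c*, *Grin2d*, *Grin3a*, *Grin3b* and *Grina*. All 8 were among the 50559 genes of the count table, and all 8 were among the 21738 genes tested, those whose counts over all immunoprecipitates came to 10 or more. The spinal cords of male mice aged 6 mo, 1 cord per library, gave mRNA on ribosomes by immunoprecipitation (IP) of a hemagglutinin (HA) tag that Cre recombination places on a ribosomal protein (*RiboTag*). Controls were *ChAT-Cre;RiboTag fx/+*. The *ChAT-BKO* mice carried the same driver and tag with *Bmal1 fx/fx* added, and so lack the clock activator *Bmal1*, listed in the table as *Arntl*, in cells with *ChAT-Cre*. Each genotype was sampled at Zeitgeber time (ZT) 8 in the light period and at ZT20 in the dark period, with 6 libraries in each of the 4 groups. Beside these was 1 pooled input library of whole spinal cord RNA taken before the IP. *ChAT-Cre* acts in every cell that makes choline acetyltransferase, so the IP holds all cholinergic types of the cord and not motor neurons alone.

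NMDA receptors are glutamate-gated cation channels of the excitatory synapse that open when glutamate and a co-agonist, glycine or D-serine, bind while depolarization relieves a magnesium block. GluN1, the product of *Grin1*, is the subunit that every such receptor needs, the GluN2 subunits from *Grin2a* to *Grin2d* bind glutamate and set how fast the channel closes and how strongly magnesium blocks it, and the GluN3 subunits from *Grin3a* and *Grin3b* bind glycine and lower calcium entry. *Grina* is named as an NMDA receptor-associated gene but encodes TMBIM3, a membrane protein of the TMBIM family that forms no part of the channel pore.

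*Arntl* was at 6.22 to 10.0 counts per M (CPM) in controls at ZT8 and 1.97 to 3.30 CPM in *ChAT-BKO* libraries, and at 7.60 to 10.9 CPM against 1.35 to 2.80 CPM at ZT20, so the labels and the deletion matched in all 24 libraries. CPM is the count per M of the library total, scaled with edgeR's TMM factors. Total counts ran from 4.04 to 31.7 M over the 24 IP libraries, with medians from 7.62 to 15.1 M by group, and the input had 7.40 M. All 7 cholinergic markers, *Chat*, *Slc18a3*, *Slc5a7*, *Isl1*, *Mnx1*, *Prph* and *Ache*, were above the input (median log2 ratio 2.37), and 0 of 6 astrocyte markers were (median -4.41). Libraries of each group differed by more than counting noise and are taken as separate mice.

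The window of 250 bases before the RefSeq start site (GRCm38.p6) is shown for *Grin1*, the essential subunit, and for *Grin2c*, the member with the largest difference between genotypes, because the BMAL1 complex is known to bind the E-box CACGTG. The E-box reads the same on both strands and is in capitals. A window was matched for 4 of the 8 members (*Grin1*, *Grin2c*, *Grin2d* and *Grin3b*).

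*Grin1*, chr2:25319188-25319437, minus strand: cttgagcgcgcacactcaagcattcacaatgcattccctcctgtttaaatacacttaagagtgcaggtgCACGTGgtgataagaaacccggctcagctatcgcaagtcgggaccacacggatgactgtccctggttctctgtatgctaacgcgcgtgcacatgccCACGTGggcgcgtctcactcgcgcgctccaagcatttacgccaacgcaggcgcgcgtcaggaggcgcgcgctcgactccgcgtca

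*Grin2c*, chr11:115267244-115267493, minus strand: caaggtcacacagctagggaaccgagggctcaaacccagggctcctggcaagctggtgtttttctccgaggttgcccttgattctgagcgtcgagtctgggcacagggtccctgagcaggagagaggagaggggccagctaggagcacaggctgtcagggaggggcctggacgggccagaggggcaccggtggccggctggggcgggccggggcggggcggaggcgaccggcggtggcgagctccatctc

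The *Grin1* window held 2 E-boxes, whose first bases lay at -181 and -85 from the start site, and the *Grin2c*, *Grin2d* and *Grin3b* windows held 0. Of all 32851 windows of this length, 1978 (6.02%) held the E-box. A match is a description of these letters and not a site shown to be bound.

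In the body of the annotation (mm10, which is GRCm38, GENCODE), *Grin1* spans chr2:25291181-25319187 on the minus strand and *Grin2c* chr11:115249169-115267243 on the minus strand. *Grin2a* spans chr16:9567898-9995560, *Grin2b* chr6:135713233-136173511, *Grin2d* chr7:45831883-45878378 and *Grin3a* chr4:49661611-49845744, all on the minus strand. *Grin3b* (chr10:79970715-79977190) and *Grina* (chr15:76246764-76249904) are on the plus strand. Counts are of whole genes and were not split by exon. *Grin2d* overlaps *Kdelr1*, *Grin3b* overlaps *Tmem259* and *Grin1* overlaps *Grin1os*, each on the opposite strand. Counts were fractional in 75% of the libraries for *Grin2d*, in 45.8% for *Grin1* and in 0% for *Grin3b*. The counts of these genes are uncertain to the extent that reads in the overlap were assigned to either gene.

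In cholinergic neurons the channel genes were dominated by *Grin1* and, far below it, *Grin3b*, and *Grin2c* was the least counted member. *Grina* gave the highest count of the 8 at 1467 ± 58.8 CPM (SD over the 24 IP libraries), followed by *Grin1* at 648 ± 55.2 CPM and *Grin3b* at 129 ± 9.00 CPM. *Grin2a* was at 55.5 ± 5.42 CPM, *Grin2b* at 47.1 ± 4.84 CPM, *Grin3a* at 40.6 ± 4.01 CPM, *Grin2d* at 34.8 ± 5.61 CPM and *Grin2c* at 11.1 ± 2.23 CPM. *Grin2c* rested on 50 to 295 counts a library, and the other members on 153 to 45004 counts. Over the 24 libraries, with differences between groups included, the coefficient of variation was 4.01% for *Grina* and 20.1% for *Grin2c*. Within groups it was 8.30 to 16.1% for *Grin2c* and 11.6 to 20.0% for *Grin2d*, which spread more than *Grin2c* in 3 of the 4 groups. Together the 8 genes took 2434 ± 124 CPM of the IP libraries and 1242 CPM of the input. In these bulk libraries fewer cells of a type and less RNA per cell cannot be told apart.

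**Figure D1:**
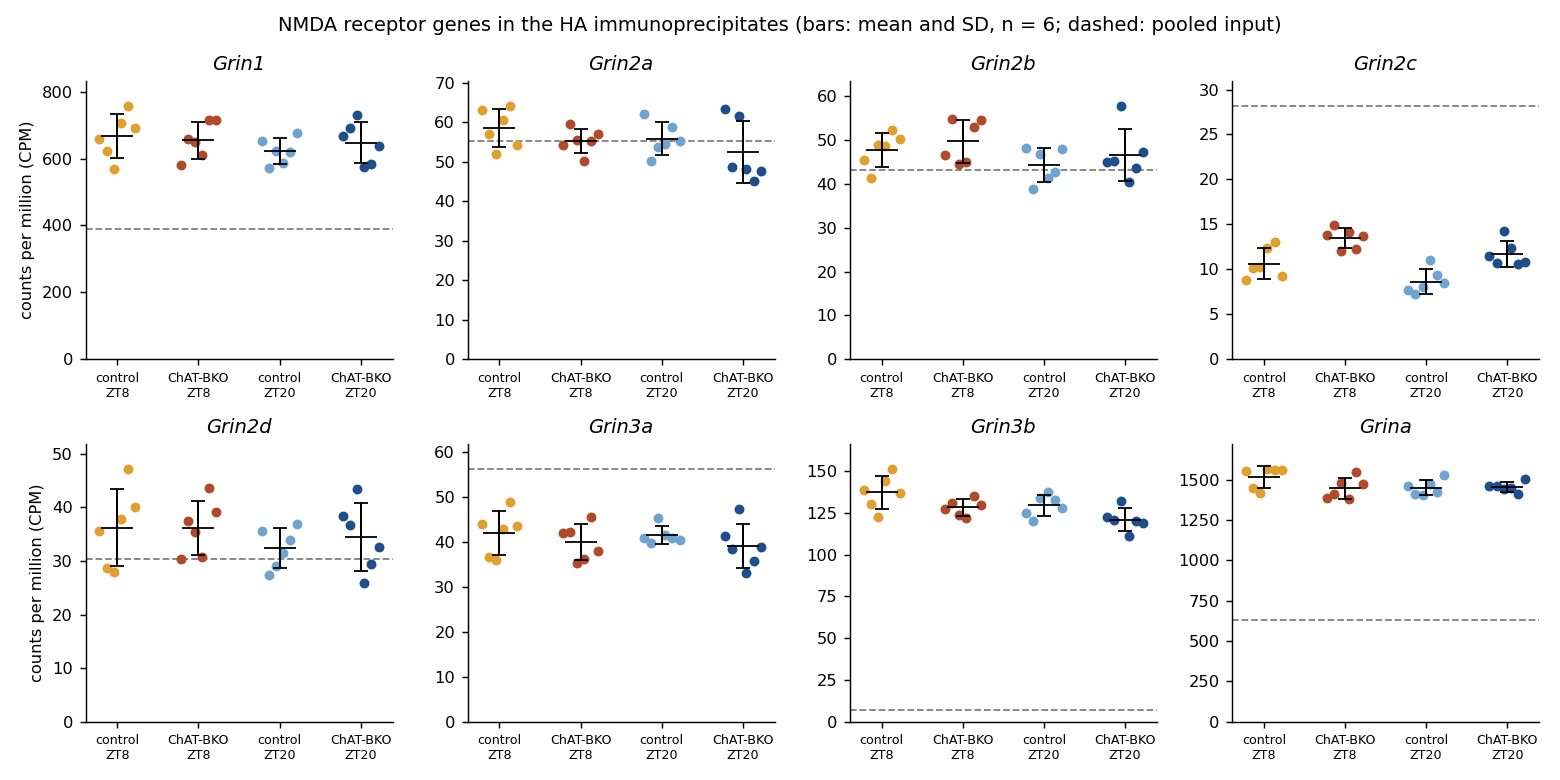
CPM (vertical axis, from 0) of the 8 NMDA receptor genes in each of the 24 HA immunoprecipitates, with the mean and SD of each group (n = 6) and the pooled input as a dashed line. In the *Grin2c* panel the means of both *ChAT-BKO* groups lie above those of their controls, with overlapping libraries, and *Grin3b* is the panel in which every library lies far above the input.

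Levels of different genes can be compared only per length, because a long transcript yields more fragments. Divided by the longest annotated transcript, *Grin1* was at 152 CPM per kb and *Grin3b* at 39.3 CPM per kb, and each stood above the next gene in 24 of 24 libraries. *Grin2d* (6.40 CPM per kb) was above *Grin3a* (5.42 CPM per kb) in 21 of 24 libraries. *Grin3a* was above *Grin2a* (3.79 CPM per kb), and *Grin2a* above *Grin2c* (2.27 CPM per kb), in 24 of 24. *Grin2c* was above *Grin2b* (1.96 CPM per kb) in 18 of 24 libraries, so that this last pair was not in 1 order throughout. The rank of the GluN2 genes depended on the length used. *Grin2a* and *Grin2b* have long annotated transcripts (14634 and 24060 bases, against 4895 for *Grin2c* and 5431 for *Grin2d*), and per kb of coding sequence, a scale chosen after seeing the data, the order among them was *Grin2a* (12.6), *Grin2b* (10.6), *Grin2d* (8.76) and *Grin2c* (2.99 CPM per kb). *Grin1* and *Grin3b* were the highest of the 7 channel genes on both scales, and *Grina* was above them at 851 CPM per kb of transcript.

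Of the summed level of the 7 channel genes per kb of transcript, *Grin1* made up 71.9% ± 1.12 (SD, n = 24) and *Grin3b* 18.7% ± 1.07. *Grin2d* made up 3.02% ± 0.27, *Grin3a* 2.57% ± 0.18, *Grin2a* 1.80% ± 0.13, *Grin2c* 1.08% ± 0.21 and *Grin2b* 0.93% ± 0.07. The input was composed otherwise, with *Grin1* at 77.3%, *Grin3a* at 6.38%, *Grin2c* at 4.89%, *Grin2d* at 4.78%, *Grin2a* at 3.21%, *Grin3b* at 1.86% and *Grin2b* at 1.53%. Among the 7 channel genes on this scale, *Grin3b* was second in the IP and second lowest in whole cord, and per kb of coding sequence and in plain counts it was the lowest in whole cord, at 1.24% and 1.18%. The share of *Grin1* was lower in the IP than in the input on this scale and higher per kb of coding sequence, at 71.5% against 70.5%. Of the plain counts of all 8 genes, *Grina* took 60.3% ± 1.46 and *Grin1* 26.6% ± 1.12 in the IP, against 51.0% and 31.3% in the input.

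**Figure D2:**
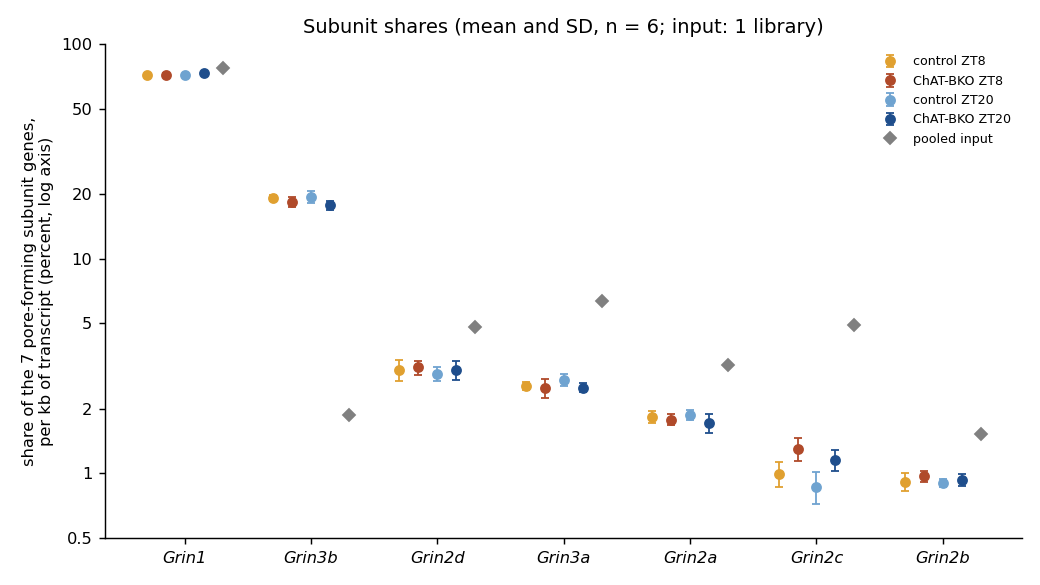
Share of each gene in the summed level of the 7 pore-forming subunit genes, per kb of longest transcript, on a log axis in percent, as mean and SD of 6 libraries for each IP group and as a diamond for the 1 pooled input. *Grin3b* lies near 18.7% in the IP groups and at 1.86% in the input, and the other 6 genes have a lower mean share in the IP than in the input.

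*Grin3b*, the glycine-binding subunit known for its expression in motor neurons, was the member most enriched over whole cord. It had 53 counts in the input (exact Poisson 95% interval 39.7 to 69.3, counting error only), or 7.17 CPM, and between 111 and 151 CPM in the 24 IP libraries. The mean log2 ratio of IP to input was 4.17, a level 18.0-fold that of the input, with single libraries between 3.95 and 4.40. Of 13692 genes with a mean of at least 1 CPM in the IP and a count in the input, 9 (0.0657%) had a higher ratio, and the median of these genes was -0.32. The cholinergic marker *Mnx1*, a motor neuron transcription factor, was at a log2 ratio of 4.73 and *Prph*, which encodes peripherin, at 3.87. There is 1 input library, so these ratios have no replicate check on the input side and no test was made.

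*Grina* (log2 ratio 1.21) and *Grin1* (0.74) were also above the input in 24 of 24 libraries. *Grin2d* (0.19, above in 17 of 24 libraries), *Grin2b* (0.13, 19 of 24) and *Grin2a* (0.01, 13 of 24) lay close to the input when scaled by library totals and TMM factors of the IP alone. *Grin3a*, the other GluN3 gene, was below it in all 24 libraries (-0.47). *Grin2c*, known from cerebellar granule cells and astrocytes, had a log2 ratio of -1.34, and the input was 2.53-fold above the IP mean. It was below the input in every library, but 21.2% of the genes compared had a lower ratio, and all 6 astrocyte markers did, from -2.65 (*Aldh1l1*, a folate enzyme) to -5.75 (*Aqp4*, a water channel). With TMM factors that included the input, all ratios moved up by about the same step, to 4.62 for *Grin3b*, -0.01 for *Grin3a* and -0.89 for *Grin2c*, and the order of the members was kept. On that scale *Grin3a* was above the input in 12 of 24 libraries, and *Grin2a* (0.46), *Grin2b* (0.58) and *Grin2d* (0.65) in 24 of 24, so where these 4 genes stood against the input depended on the scaling.

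**Figure D3:**
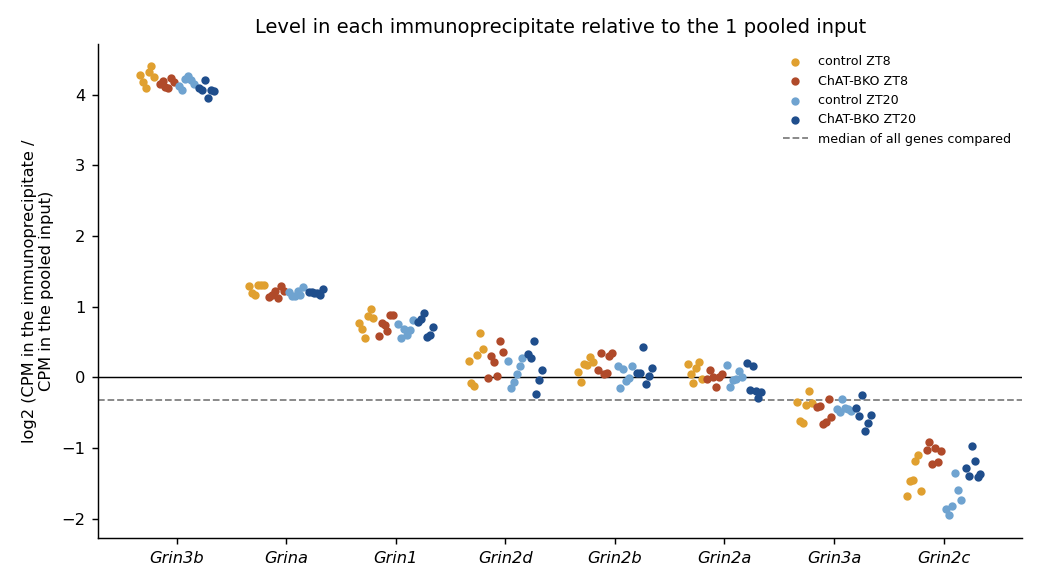
Log2 ratio of the CPM in each of the 24 IP libraries to the CPM in the 1 pooled input (vertical axis), by gene and coloured by group, with the median of all genes compared as a dashed line. *Grin3b* lies near 4.17 in every library, *Grina* and *Grin1* lie above 0, and *Grin3a* and *Grin2c* lie below 0, *Grin3a* not in every library when the scaling includes the input.

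The comparison of genotypes asked which of these transcripts differed with *Bmal1* deletion at each time of day. No member was called at an adjusted p under 0.05 (edgeR quasi-likelihood test, Benjamini-Hochberg over 21738 genes), where 0.184% of all genes were called at ZT8 and 0.23% at ZT20. *Grin2c* was the member that stood apart, higher in *ChAT-BKO* neurons at both times, and it was the member with an unadjusted p under 0.05 in both comparisons (4.83% and 6.28% of all genes).

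*Grin2c* at ZT8 was at 8.78, 10.2 and 13.1 CPM (lowest, median and highest of 6) in controls, and 12.0, 13.7 and 14.9 CPM with the deletion. At ZT20 it was at 7.25, 8.22 and 11.0 CPM in controls, and 10.6, 11.2 and 14.3 CPM with the deletion. The groups overlapped at both times, with 4 of 6 *ChAT-BKO* libraries above every control at ZT8 and 3 of 6 at ZT20. The log2 fold change was 0.35 at ZT8 (SE 0.10, adjusted p = 0.546 from edgeR) and 0.46 at ZT20 (SE 0.11, adjusted p = 0.156 from edgeR). DESeq2 called it at ZT20 (adjusted p = 0.042, with 0.419% of all genes called) and not at ZT8 (adjusted p = 0.266, with 0.322% of all genes called). Over all 20 alternative settings, the adjusted p ran from 0.042 to 0.445 at ZT20 and from 0.0777 to 0.992 at ZT8, and the difference was positive in each.

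With both times in 1 additive fit of genotype and time over the 24 libraries, a comparison chosen after seeing the data, *Grin2c* was the 1 member of 8 called, while 0.741% of all genes were called and 0.529% were called higher. The log2 fold change averaged over ZT8 and ZT20 was 0.40 (SE 0.08, 95% interval 0.25 to 0.56, adjusted p = 0.00323 from edgeR), which is a level 32.4% above controls. With each of the 24 libraries left out in turn it stayed between 0.36 and 0.44, with an adjusted p from 0.000972 to 0.00922, and DESeq2 gave an adjusted p of 5.49e-05, with 1.09% of all genes called. *Grin2c* and *Grin3b* were the 2 of 8 members with an unadjusted p under 0.05 in this fit (7.04% of all genes). The difference between the *ChAT-BKO* effects at ZT20 and ZT8 was 0.11 on the log2 scale (95% interval -0.20 to 0.43, adjusted p = 1 from edgeR), so the sizes at the 2 times were not told apart at this depth.

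Marker genes of astrocytes and skeletal muscle were measured beside *Grin2c*. The summed level of the 6 astrocyte markers ran from 99.9 to 146 CPM in controls and from 98.1 to 150 CPM in *ChAT-BKO* libraries at ZT8. At ZT20 it ran from 110 to 134 CPM against 110 to 150 CPM, with 2171 CPM in the input. Most of the sum in the IP was *Gfap*, at a mean of 78.6 CPM over the 24 libraries. None of the 6 markers was at 0 in any group. In *ChAT-BKO* libraries 2 of 6 were higher at ZT8 and 5 of 6 at ZT20, with medians of -0.02 and 0.06 on the log2 scale. At either time 0 of 6 were called, where 0.184% of all genes were called at ZT8 and 0.23% at ZT20. At ZT20, 5 of 6 skeletal muscle markers were called higher in *ChAT-BKO* libraries (median 2.20 on the log2 scale), where 0.23% of all genes were called in either direction. Among them was *Atp2a1*, the muscle calcium pump, at 2.93. The summed level of the 6 muscle markers at ZT20 was 4.62 to 19.4 CPM in controls and 3.83 to 74.3 CPM in *ChAT-BKO* libraries. None was at 0 in either group, and the input had 179 CPM. At ZT8, 0 of 6 muscle markers were called, where 0.184% of all genes were. Their sum there ran from 1.29 to 76.2 CPM in controls and from 3.05 to 128 CPM in *ChAT-BKO* libraries, so it varied widely between single libraries of both genotypes. Within groups *Grin2c* had a Pearson correlation of -0.07 with the muscle markers and 0.22 with the astrocyte markers over the 24 libraries. It was -0.24 with the oligodendrocyte markers and -0.12 with the cholinergic neuron markers. These are given as a description of points that each come from 1 library. The part of muscle and astrocyte RNA in the *Grin2c* difference was not tested.

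In the edgeR fits above, the other 7 members differed by at most 0.10 on the log2 scale between genotypes. *Grin1* was at 569, 676 and 757 CPM (lowest, median and highest) in controls, and 581, 654 and 717 CPM with the deletion at ZT8, and at 571, 622 and 678 CPM against 575, 653 and 731 CPM at ZT20. The 2 genotypes covered nearly the same range at each time. The log2 fold change averaged over both times was 0.01 (95% interval -0.08 to 0.11).

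*Grin3b* was at 123, 138 and 151 CPM in controls, and 122, 129 and 135 CPM with the deletion at ZT8. At ZT20 it was at 120, 130 and 137 CPM in controls, and 111, 120 and 132 CPM with the deletion. The *ChAT-BKO* medians were lower at both times and the groups overlapped. Averaged over both times the log2 fold change was -0.10 (SE 0.04, 95% interval -0.17 to -0.03), with an unadjusted p of 0.00956 and an adjusted p of 0.364 from edgeR, which did not pass.

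*Grina* ran from 1382 to 1566 CPM over all 24 libraries and had an averaged log2 fold change of -0.03 (95% interval -0.09 to 0.02). For *Grin2a* it was -0.08 (-0.19 to 0.03), for *Grin2b* 0.07 (-0.04 to 0.18), for *Grin2d* 0.05 (-0.12 to 0.22) and for *Grin3a* -0.07 (-0.19 to 0.04). None of these intervals left out 0, and none reached the value of *Grin2c*. Of the 8 members, 2 were higher and 6 lower in *ChAT-BKO* neurons at ZT8 (median -0.04) and 4 higher and 4 lower at ZT20 (median 0.02), beside medians of 0.00 and -0.01 over all genes tested. The libraries of the 2 genotypes did not overlap for 0 of 8 members at either time, where 0.57% of all genes did not overlap at ZT8 and 0.506% at ZT20.

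**Figure D4:**
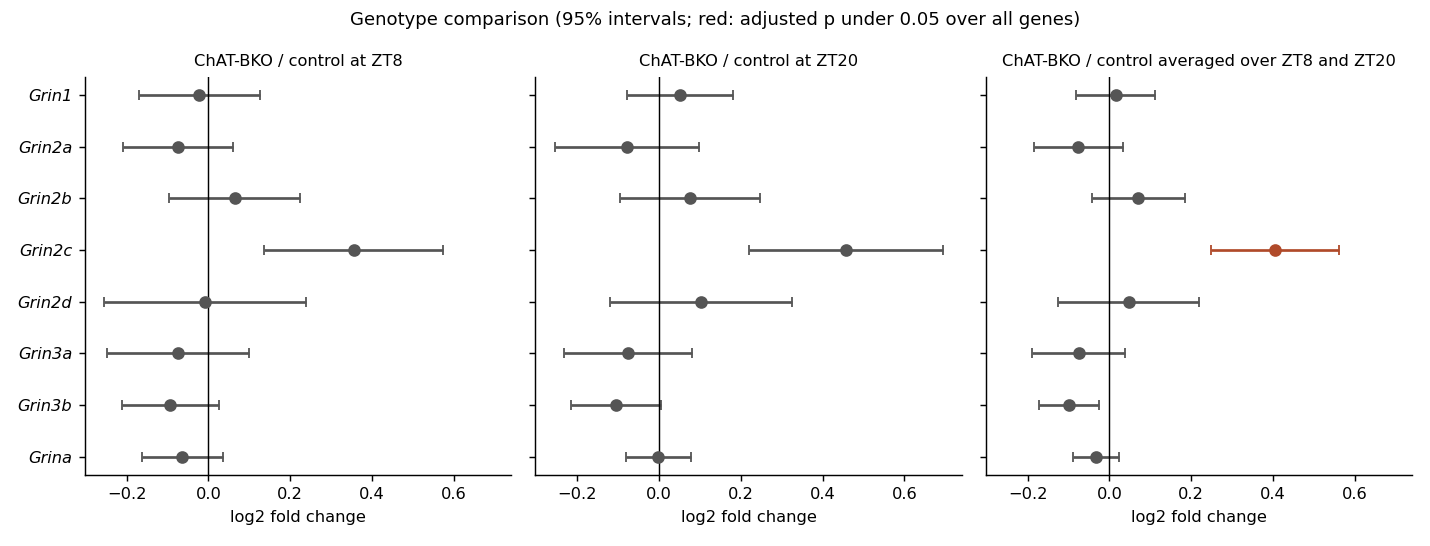
Log2 fold change of *ChAT-BKO* over control (horizontal axis) with its 95% interval for each of the 8 genes at ZT8, at ZT20 and averaged over both, with genes called at an adjusted p under 0.05 in red. *Grin2c* is at 0.35, 0.46 and 0.40 and is called in the averaged comparison, and the other 7 lie within 0.10 of 0.

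The share of *Grin2c* among the GluN2 genes, a description of the same counts, was also higher in *ChAT-BKO* libraries. It took 5.74, 7.38 and 7.74% (lowest, median and highest) of the counts of the 4 GluN2 genes in controls at ZT8 and 7.45, 8.64 and 10.1% in *ChAT-BKO* neurons. At ZT20 it took 5.03, 5.84 and 7.95% in controls and 7.26, 7.96 and 9.77% in *ChAT-BKO* neurons. The upper controls overlapped with the lower *ChAT-BKO* libraries at each time. The share in the input was 17.9% (208 of 1160 counts, Wilson 95% interval 15.8 to 20.2%). The summed level of the 4 GluN2 genes was 153 ± 14.4 CPM in controls, and 155 ± 11.8 CPM with the deletion, at ZT8 (SD, n = 6), and 141 ± 10.5 CPM and 145 ± 19.2 CPM at ZT20, so the differences between means were within 1 SD.

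GluN2A gives faster receptors than GluN2B, and the ratio of their transcripts needs no scaling between libraries for depth. The longest transcripts differ in length, at 14634 and 24060 bases, and libraries differ in how the level depends on transcript length. The ratio was not adjusted for this. The log2 ratio of *Grin2a* to *Grin2b* counts was 0.29 ± 0.17 in controls and 0.15 ± 0.10 in *ChAT-BKO* neurons at ZT8, and 0.33 ± 0.11 and 0.17 ± 0.18 at ZT20 (SD, n = 6), with 0.35 in the input. *Grin2a* had more counts than *Grin2b* in all 24 libraries. The difference was -0.13 at ZT8 (p = 0.117) and -0.17 at ZT20 (p = 0.0887), each with an adjusted p of 0.234 over 4 comparisons in exact two-sided permutation tests, and neither passed. Averaged over both times, with genotypes exchanged within each time in all 853776 ways, it was -0.15 (exact permutation p = 0.0167, unadjusted), a test chosen after seeing the data. In *ChAT-BKO* neurons at ZT20, 4 of 6 libraries lay below every control while 1 library, at 0.49, lay above every control.

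**Figure D5:**
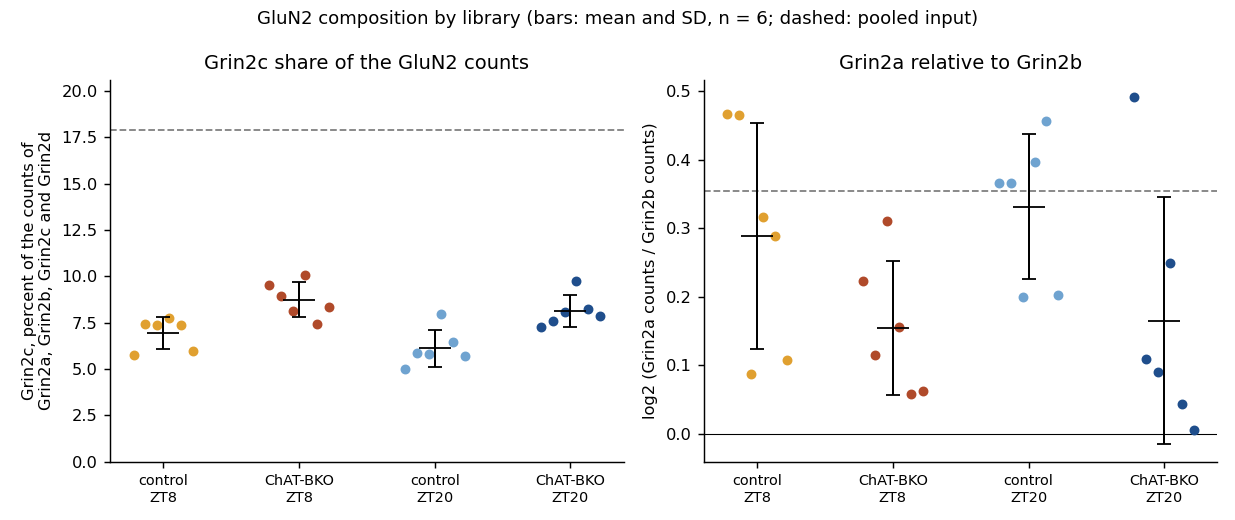
Left, share of *Grin2c* in the counts of the 4 GluN2 genes in percent, and right, log2 ratio of *Grin2a* to *Grin2b* counts, for each IP library with the mean and SD of each group (n = 6) and the pooled input as a dashed line. The *Grin2c* share is 7.26 to 10.1% in *ChAT-BKO* libraries and 5.03 to 7.95% in controls, and the *Grin2a* to *Grin2b* ratio overlaps widely between groups.

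Time of day was compared within each genotype. In controls all 8 members were lower at ZT20 than at ZT8, the median being -0.09 on the log2 scale. *Grin3a* was at -0.01 (95% interval -0.16 to 0.14), and over the alternative settings it ran from -0.05 to 0.03. Members that vary together across libraries do not make 8 separate observations. None of the 8 was called, where 0.115% of all genes were. In *ChAT-BKO* neurons 1 was higher and 7 were lower (median -0.05), and 0 of 8 were called, where 0.285% of all genes were. The 2 comparisons use different libraries, and the medians over all genes were 0.00 in both. No member was without overlap between times, where 0.938% of all genes were in controls and 1.18% in *ChAT-BKO* neurons. DESeq2 also called 0 of 8 in each, with 0.584% and 1.04% of all genes called, and at an unadjusted p under 0.05 edgeR gave 1 of 8 in controls (8.25% of all genes) and 0 of 8 in *ChAT-BKO* neurons (9.42%). *Grin2c* had the largest difference in both, -0.30 in controls (SE 0.12, adjusted p = 0.508 from edgeR) and -0.19 in *ChAT-BKO* neurons (SE 0.10, adjusted p = 0.577 from edgeR). Averaged over the genotypes it was -0.24 (95% interval -0.40 to -0.09, adjusted p = 0.0834 from edgeR), which missed the threshold. Of the other members, *Grin2d* had the next largest value in controls, -0.15 (95% interval -0.38 to 0.08), and the rest were at -0.10 or nearer 0. For the difference of the genotype effect between the times, 0 of 8 members and 0% of all genes were called by edgeR and 0 by DESeq2, with 848 genes (3.9%) but no member at an unadjusted p under 0.05.

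Genes that act around the receptor were described from lists. Of 24 postsynaptic scaffold and signaling genes, 14 were higher and 10 lower in *ChAT-BKO* neurons at ZT8 (median 0.00). At ZT20 17 were higher and 7 lower (median 0.05), and 0 were called at either time. Of all genes, 0.184% were called at ZT8 and 0.23% at ZT20, so 0 called in a list this short does not set it apart from other genes. *Camk2g* (505 CPM) and *Camk2b* (473 CPM), which encode chains of calcium/calmodulin kinase II, were the most abundant. The smallest p values belonged to *Dlgap1*, a scaffold protein, at 0.19 (adjusted p = 0.499 from edgeR) at ZT8 and its relative *Dlgap4* at 0.15 (adjusted p = 0.384 from edgeR) at ZT20. Of 8 genes for trafficking to the membrane, 0 were called, and *Gripap1*, an endosomal protein, was the most abundant at 176 CPM with a log2 ratio to the input of 1.06.

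Of 7 genes for the supply of the co-agonists glycine and D-serine, 0 were called. For this and the other short lists here, the share of all genes called between genotypes was 0.184% at ZT8 and 0.23% at ZT20. With the input scaled to its total, 0 were above the input, the highest being *Slc1a4* at a log2 ratio of -0.04. Ratios of listed genes to the input are given on this scale only, and those near 0 depend on it, as for the members. *Srr*, the enzyme that makes D-serine, was at 16.5 CPM with a ratio to the input of -1.54 on the log2 scale, and the glial glycine transporter *Slc6a9* was at 30.3 CPM with -3.54. Of 7 glutamate transporter genes, 0 were called, and the neuronal carrier *Slc1a1* (116 CPM, log2 ratio 0.45) was the 1 above the input, while the astrocyte carrier *Slc1a2* was at -4.17. In the TMBIM family of *Grina*, 0 of 6 genes were called. *Faim2*, an inhibitor of Fas-driven cell death, was the next most abundant after *Grina* at 1158 CPM and had a log2 fold change of -0.05 at ZT8 and -0.04 at ZT20. Between genotypes, 4 of the 6 TMBIM genes were higher and 2 lower at ZT8 (median 0.00), and 0 were higher and 6 lower at ZT20 (median -0.05), where *Grina* changed sign with DESeq2.

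Among markers of other neurons and glia, 0 were called in either genotype comparison, for 7 cholinergic, 6 excitatory, 6 inhibitory, 6 oligodendrocyte, 6 oligodendrocyte precursor, 6 microglia and 6 endothelial genes. The share of all genes called was 0.184% at ZT8 and 0.23% at ZT20. The 6 excitatory markers had a median log2 ratio to the input of -2.47, and 1 of 6 was above it (*Cck*, 65.6 CPM and 0.88). *Slc17a6*, the vesicular glutamate transporter of excitatory neurons, was at 45.3 CPM and -2.02. The 6 inhibitory markers had a median of -1.56, and 0 of 6 were above the input. The highest of their ratios was that of *Gad1*, at 128 CPM and -0.39. The part of these cells in the level of each receptor gene was not tested.

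Most of the channel genes varied together across libraries, and *Grin2c* less so with most of them. After group means were removed, the Pearson correlation of log2 CPM over the 24 libraries was 0.94 between *Grin1* and *Grin2d* and 0.72 between *Grin1* and *Grin2b*. For *Grin2c* it was 0.19 with *Grin1*, up to 0.36 (*Grin2a*) with the other channel genes but *Grin3b*, and 0.52 with *Grin3b*. The last value was above the 0.49 between *Grin2a* and *Grin2b*. *Grin2c* rested on 50 to 295 counts a library, and the part of counting noise in its correlations was not tested. The dependence of log2 CPM on log2 transcript length was fitted as a slope in each library. Its correlation with the members was 0.95 for *Grin2d*, 0.89 for *Grin1*, 0.83 for *Grin2b*, 0.50 for *Grina* and 0.37 for *Grin2c*. The slope ran from 0.0753 to 0.320 and overlapped between all 4 groups. With the slope as a covariate the *Grin2c* change was 0.35 at ZT8 (adjusted p = 0.0777 from edgeR) and 0.41 at ZT20 (adjusted p = 0.0857 from edgeR). At ZT20 the same edgeR setting gave -0.16 for *Grin2a* (adjusted p = 0.243), -0.14 for *Grin3a* (adjusted p = 0.440) and -0.13 for *Grin3b* (adjusted p = 0.157). *Grin1*, *Grin2b*, *Grin2d* and *Grina* lay between -0.03 and 0.00 there. The unadjusted edgeR p of *Grin3b* was 0.00656 at ZT8 and 0.00227 at ZT20. None of the 8 members was called with the slope at either time, where 163 of 21738 genes were called at ZT8 and 165 at ZT20.

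The genes most like 4 members over the 24 libraries, by Pearson correlation of log2 CPM among 10428 genes with a mean of at least 5 CPM, are given as a description, since all points share a library, its depth and its length slope. For *Grin1* these were *Slc12a5*, the neuronal chloride exporter, *Iqsec1* and *Clstn1* (each 0.95), and for *Grin2b* they were *Igf2r* (0.84), *Slc24a3* (0.84) and *Thada* (0.83). *Grin2c* was most like *Itga7* (0.78), an integrin chain, *Cpne6* (0.78) and *Tecpr1* (0.77). *Grina* was most like *Sncg* (0.85), which encodes gamma-synuclein, *Ecel1* (0.82) and *Tlcd3b* (0.81).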

How the data were processed

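RNA bound to cholinergic neuron ribosomes was sequenced in 24 IP libraries and 1 pooled input. The authors aligned reads with STAR 2.7.5 to mm10 and estimated gene counts with RSEM, per the labels and the study's methods. The table holds RSEM's expected counts, deposited by the authors with no normalization or filter, for 50559 genes in 25 columns, and 0 columns were left out. Of all values, 6.11% were not whole and were rounded for the count tests. Whether counting used strand is not given in the sources used here.

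Groups and replicate numbers came from the sample labels. A gene was tested where its counts in the 24 IP libraries came to 10 or more (21738 genes). Tests were run in R 4.3.3 with edgeR 4.0.16 (TMM, quasi-likelihood F test, two-sided) on the 12 libraries of each comparison, on all 24 for the difference of effects, with Benjamini-Hochberg adjustment over every gene tested. CPM is on TMM-scaled library sizes, a prior count of 2 was used for log2 CPM, the SE was derived from the F statistic, and 95% intervals use the degrees of freedom of that test. The input was scaled to its total and entered no test. The ratio of *Grin2a* to *Grin2b* (0.5 added to each count) was compared by exact permutation tests. Lengths were taken from GENCODE (GRCm38), whose release differs from the annotation the study names, and promoter windows from RefSeq (GRCm38.p6).

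The text names all 8 members, *Arntl*, and of each list its called genes, its 2 most abundant genes and the 2 with the smallest p in each genotype comparison, or some of these, and the 3 genes most correlated with *Grin1*, *Grin2b*, *Grin2c* and *Grina*. The members and lists were chosen with earlier results of these data known. Alternatives were DESeq2 1.42.0, edgeR with size factors from DESeq2, all genes with a count, filterByExpr, replicate number as a block, limma 3.58.1 voom with sample quality weights, the length slope as covariate, all 24 libraries in the fit, and each library left out. In simulated counts for the same libraries, 200 of 21738 genes were changed by 1.5 on the log2 scale. At ZT8 99.5% were recovered with 3.4% false calls, and at ZT20 99% with 5.26%. Between times 99% were recovered with 2.94% in controls and 99% with 3.88% in *ChAT-BKO* neurons. For the difference of effects 93.5% were recovered with 4.59%. Recovery of changes as small as those of *Grin2c* between genotypes, 0.35 at ZT8 and 0.46 at ZT20, was not tested.

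A count of 0 allows up to 3 counts, and intervals on counts cover counting error only. Figures were drawn with matplotlib 3.10.9.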

Additional observations from a re-analysis of the deposited data

Results flagged for a closer look

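Among 36 groups of 6 values looked at (8 genes and the *Grin2a* to *Grin2b* ratio in 4 groups), 1 held a library far from the others, where chance gives about 1 in 20 groups. *Grin3a* in control replicate 3 at ZT20 was at 45.4 CPM, while the other 5 controls of that time lay between 39.7 and 41.5 CPM. The gap to its neighbour was 0.691 of the range, above Dixon's limit of 0.625 for 6 values.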

How the results depend on the processing

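Of the counts of members called, 1 changed, at ZT20, where DESeq2 called 1 member (*Grin2c*, 0.46, adjusted p = 0.042) and edgeR 0. With 1 library left out at a time, 0 members were called in each of the 5 planned comparisons. The additive fit over both times called 1 member with any library left out and with DESeq2, and 0 results changed direction in a called comparison. The cause of the DESeq2 difference was not tested.

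The labels give the groups the same replicate numbers, but these are only numbers. Correlations of same-numbered libraries ran from -0.197 to 0.356, 7 of 24 pairs were over 0.1 and 4 of 24 libraries correlated best with their own number. With the replicate block 0 members were called, where 69 of 21738 genes were called between genotypes at ZT8 and 61 at ZT20. *Grin2c* was then at 0.38 at ZT8 (adjusted p = 0.298 from edgeR) and 0.45 at ZT20 (adjusted p = 0.160 from edgeR). With the block, the *Grin2a* to *Grin2b* ratio differed by -0.13 at ZT8 and -0.17 at ZT20 (exact permutation, adjusted p = 0.313 for each).

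Counts over all genes moved more. At ZT8 they were 40 with edgeR, 70 with DESeq2, 69 with the block, 163 with the length slope and as few as 19 without *ChAT-BKO* replicate 3. At ZT20 they were 50, 91 with DESeq2, 165 with the slope and 29 without control replicate 3. Between times they were 25 in controls (127 with DESeq2, 86 with the block, 354 with the slope, 11 without replicate 3 at ZT20) and 62 in *ChAT-BKO* neurons (225 with DESeq2, 486 with the slope, 140 with all 24 libraries in the fit, 33 without replicate 1 at ZT8).

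*Grin2c* rested on the fewest counts, 50 to 295 a library, and *Grin2d* had the larger SE at ZT8 (0.12 against 0.10). Shares of *Grin2a* and *Grin2b* depend on the length used, at 1.80% and 0.93% of the 7 channel genes per kb of transcript, 4.01% and 3.37% per kb of coding sequence and 5.75% and 4.88% in counts.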
